A study of Mus musculus with 8 samples.

Results

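The stretch of mouse chromosome 19 from 5780000 to 5870000 (build mm9) holds Malat1 and Neat1, the genes of a pair of abundant long noncoding RNAs of the nucleus. Its members were the regions formed by merging overlapping ATAC-seq peaks of 4 libraries wherever they shared at least 1 bp. The stretch held 27 of the 45915 regions of the series. It was chosen by the density of its listed peaks in these same libraries, and a region counted as a member wherever it overlapped the stretch. The libraries came from NIH3T3, a mouse embryo fibroblast line that grows without limit, kept in medium with newborn calf serum and cultured for 24 h on G128 or on G2, names that the labels do not explain, in a series about hydrogels of polyvinyl alcohol and gelatin. Each group had 2 libraries, named G128 replicates 1 and 2 and G2 replicates 1 and 2, with no separate control culture. Whether replicates were separate cultures is not stated, so p-values measure only the spread between these libraries, which may be technical. The series also has 4 RNA libraries, not analysed here, so no RNA level of Malat1 or Neat1 is given. Because peaks are not tied to genes in the lists, the fibroblast identity of the cells was not checked against markers.

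In ATAC-seq the Tn5 transposase tags DNA that is not wrapped in nucleosomes, so that reads pile up where chromatin is open. Malat1 RNA collects in nuclear speckles, which store and supply splicing factors, and the end of its transcript is processed into a small cytoplasmic RNA, mascRNA. Neat1 RNA is the scaffold of paraspeckles, nuclear bodies that hold RNA-binding proteins such as NONO and SFPQ, and its long isoform is the one they need. Both genes are strongly transcribed in many cell types, fibroblasts included. In the RefSeq gene table, which is on another build (GRCm38.p6) and was used for gene order alone, Malat1 is followed by Mascrna and then Neat1. Among the genes before them is Ltbp3, whose protein binds latent TGF-beta. After them come Frmd8, Slc25a45, Tigd3, the chromatin remodelling subunit gene Dpf2, Gm42067, Cdc42ep2 and Pola2, the gene of a DNA polymerase alpha subunit. No annotation of mm9 was used here, so no region below is assigned to a gene body, a promoter, an exon or an intron.

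The Malat1 promoter is shown because it belongs to one of the genes that define the interval. It is 300 bases of RefSeq sequence on GRCm38.p6, minus strand, from 250 bases before the transcript start to 50 bases after it, with 47.0% G or C. Capitals mark matches to TGACGT, the core of the cAMP response element that CREB and ATF factors bind.

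Malat1 promoter: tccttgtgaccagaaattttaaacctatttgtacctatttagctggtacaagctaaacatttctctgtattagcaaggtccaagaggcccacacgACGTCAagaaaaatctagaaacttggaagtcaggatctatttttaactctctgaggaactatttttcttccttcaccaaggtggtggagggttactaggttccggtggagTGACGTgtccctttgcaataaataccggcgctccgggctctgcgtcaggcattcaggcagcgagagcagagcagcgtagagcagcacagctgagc

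The motifs were chosen with this promoter in view, so the shares below are a description and not a test. TGACGT, searched on both strands, had 2 matches that did not overlap. At least 1 match was held by 7.51% of 32851 promoters of this length in the same table. The first match was antisense and began 155 bases before the start. The second was sense and began 45 bases before it. The other 6 motifs, also searched on both strands, had 0 matches in this window. They were the AP-1 site TGANTCA, which 7.81% of all promoters held, and the TEAD site GGAATG, which 14.7% held. The Sp and KLF site GGGCGG was in 35.7% of promoters and the NF-Y site CCAAT in 37.4%. The TATA box TATAAA was in 13.6% and the E-box CACGTG in 7.15%. The table held 0 entries for Neat1. Which listed peak, if any, covers the Malat1 promoter was not determined, since the builds differ.

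The lists differed in length and in background mean. They held 32540 and 37695 peaks for G128 replicates 1 and 2 and 42358 and 41585 for G2 replicates 1 and 2. The background mean, the average number of overlapping intervals per bp inferred by a fit to the deposited p-values, was 1.05, 1.41, 1.10 and 1.37 in the same order. Heights are given below as the summit of a peak divided by this mean. The lowest listed summits were 18.97, 18.4, 18.2 and 18.3 times the background. Where a library has no listed peak, the DNA may still have been open, at a level too low to be called. The median summit over the 27768 regions with a peak in all 4 libraries was 50.3, 58.1, 67.3 and 68.7 times the background. Both G2 medians were above both G128 medians, which touches every comparison of summits between the cultures below.

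The interval was densely filled with listed peaks, the property for which it was chosen, so its density is described without a test. G128 replicates 1 and 2 had 24 and 23 peaks in it, and G2 replicates 1 and 2 had 30 and 28. On G128, 25.9% and 33.2% of the interval lay under peaks, and on G2 33.5% and 38.0%. The rest of the window, from 5870000 to 6000000, had 19, 19, 15 and 19 peaks and 9.49%, 11.3%, 10.7% and 12.0% of its bases under them. Per 100 kb the interval had 26.7, 25.6, 33.3 and 31.1 peaks, and the rest of the window 14.6, 14.6, 11.5 and 14.6. Over all of chromosome 19 the figures were 2.12, 2.43, 2.75 and 2.70 peaks per 100 kb. Of the 643 other stretches of 90 kb on the chromosome, 0 reached its mean of 26.3 peaks or its mean cover of 32.6%, and the highest values among them were 22.8 peaks and 21.6%.

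**Figure D1:**
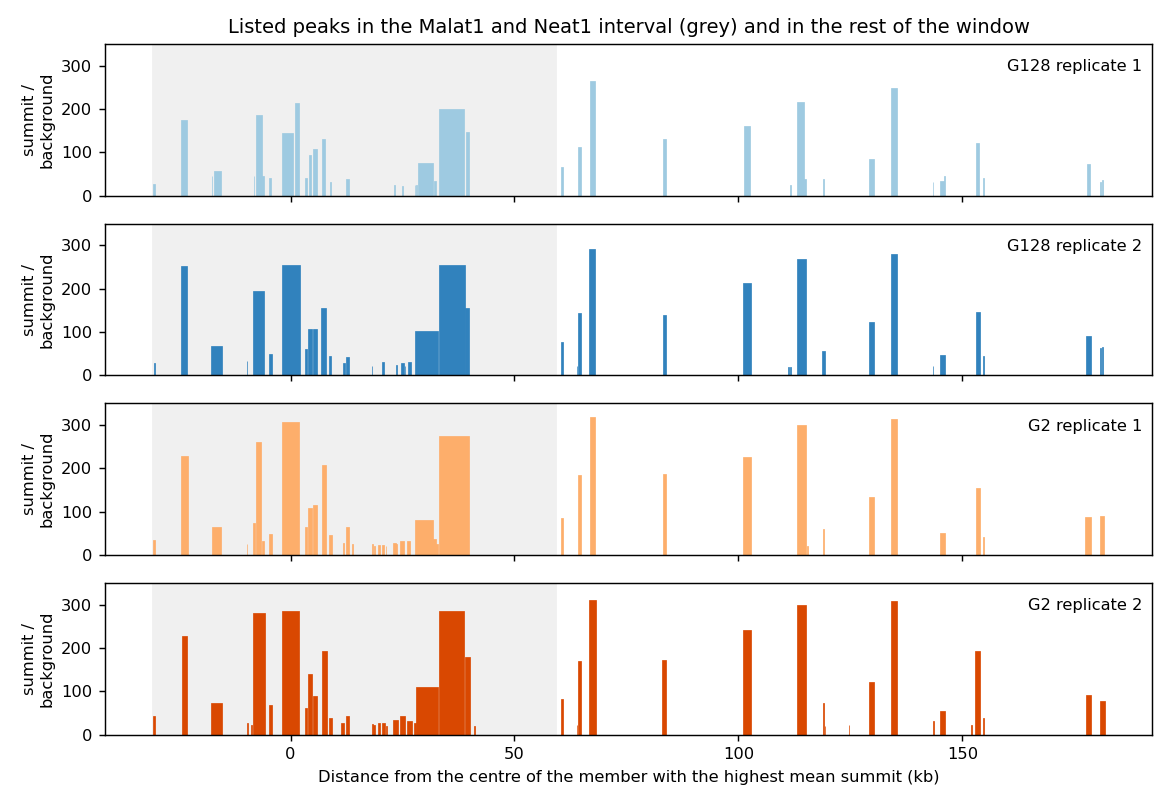
Peaks listed in each of the 4 libraries across the window. Each bar spans 1 peak, its height is the summit divided by the background mean, the horizontal axis is the distance in kb from the centre of the member with the highest mean summit, and grey marks the Malat1 and Neat1 interval. The interval holds 24, 23, 30 and 28 peaks from top to bottom, and its widest peaks are wider than those in the rest of the window.

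The peaks did not fill the interval evenly. The first member began 139 bp inside the start of the interval, and the last ended 17956 bp before its end. The nearest region before the interval, chr19:5770661-5771762, lay 8238 bp away and had summits of 167, 157, 219 and 263 times the background. The nearest after it, chr19:5871106-5871637, lay 1106 bp beyond the end with summits of 67.3, 77.9, 86.4 and 82.6 times. Between the last member and that region lay 19061 bp without a listed peak in any library. Inside the interval the median gap between neighbouring members was 653.5 bp and the longest 5828 bp, against a median gap of 3140.5 bp in the rest of the window. Together the 27 members covered 35668 bp, 39.6% of the interval.

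A few members were very wide, while the typical member was close in width to regions in the rest of the window. The median width was 657 bp over the 27 members and 713 bp over the 21 regions in the rest of the window, and 1109 and 1105.5 bp over those with a peak in all 4 libraries. Over the whole series these medians were lower, 380 bp over all regions and 627 bp over those with a peak in all 4 libraries. The widest member, chr19:5843849-5850873, spanned 7025 bp and was the fifth widest of all 45915 regions. The next, chr19:5838444-5843772, spanned 5329 bp, with 7 wider regions in the series, and ended 76 bp before the widest began. Members chr19:5808794-5812797, chr19:5802335-5805038 and chr19:5792958-5795587 spanned 4004, 2704 and 2630 bp. In all, 5 of 27 members (18.5%) were wider than 2000 bp, against 1 of 21 regions in the rest of the window and 545 of all regions (1.19%). The threshold of 2000 bp was chosen after the widths were seen.

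The widest member was also among the strongest peaks of each list by the deposited signal, which adds up over the width of a peak. The widest peak of the interval ranked 6, 6, 4 and 6 by width in the lists of G128 replicates 1 and 2 and G2 replicates 1 and 2. By signal it ranked 13, 7, 7 and 8. By summit over the background the highest peak of the interval ranked only 1572, 1460, 1474 and 1858. The other wide members ranked lower by signal, and the strongest peak of the 2630-bp member ranked 4136, 1794, 3750 and 2148. The peaks of the interval held 0.157%, 0.174%, 0.146% and 0.156% of the signal of their lists, while they were 0.0738%, 0.0610%, 0.0708% and 0.0673% of the peaks.

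**Figure D2:**
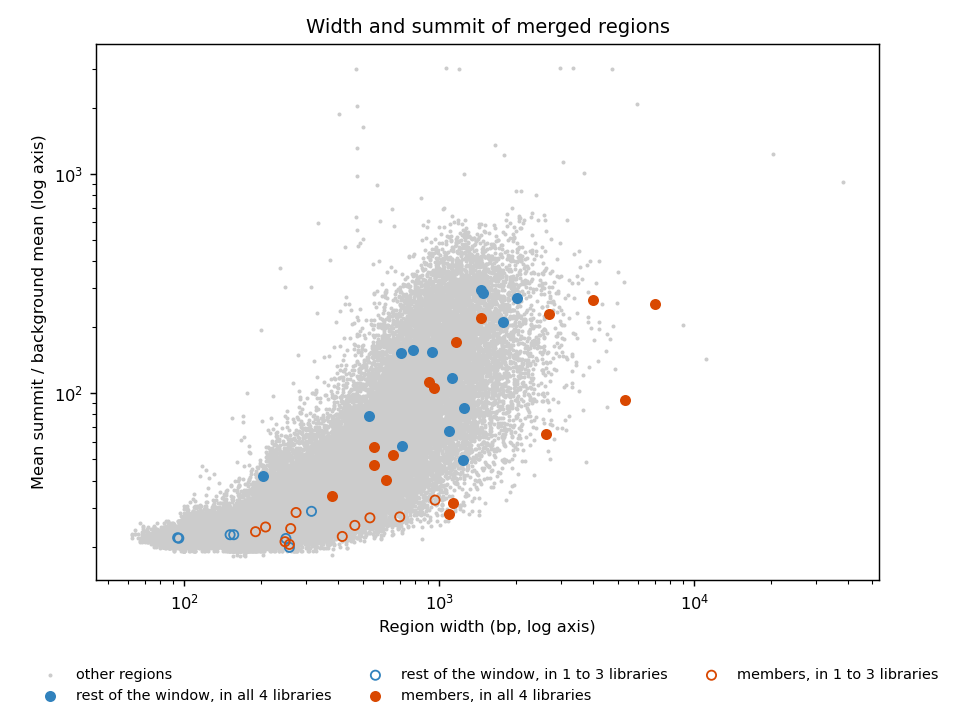
Width of each merged region in bp against its mean summit divided by the background mean, both on log axes. Filled symbols are regions with a peak in all 4 libraries and open symbols those in 1 to 3, in orange for the members, in blue for the rest of the window and in grey for all other regions. Members reach 7025 bp, while the widest region in the rest of the window is 2010 bp.

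The highest member on average was the 4004-bp region chr19:5808794-5812797. Both G128 libraries, with 213 and 256 times the background at the summit, were below G2 replicate 1 with 307 and G2 replicate 2 with 286 times. The means were 297 ± 15.4 for G2 and 235 ± 29.95 for G128 (SD, n = 2 each). Its summit fell within 19 bp in the 4 libraries, near the end of the region with the higher coordinates, at 5812297, 5812299, 5812280 and 5812292. As measured, both G2 libraries were above both G128 libraries in 67.6% of all regions with a peak in all 4 libraries. That share applies to each such order given below. Once each library was centred on its median, the groups overlapped in the 4004-bp region.

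The 7025-bp region chr19:5843849-5850873 had summits of 201 and 254 times the background on G128 and of 274 and 286 times on G2. The groups did not overlap as measured, with means of 228 ± 37.7 and 280 ± 8.40 (SD, n = 2 each). They overlapped once each library was centred on its median. Here the summit lay at 5846739 in both G128 libraries, at 5845734 in G2 replicate 1 and at 5845440 in G2 replicate 2. The summit values of the cultures were therefore not taken at the same base. The G2 libraries also differed from each other, and how many regions split by culture in this way was not counted. The range of positions, 1299 bp, was the widest among the members with a peak in all 4 libraries. G2 replicate 1 had 1 peak over this region and the other libraries had 2 each.

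The 2704-bp region chr19:5802335-5805038 had summits of 186 and 194 times the background on G128 and of 260 and 281 times on G2. The group means were 190 ± 5.82 and 271 ± 14.9 (SD, n = 2 each), a ratio of 1.42. Both replicates 1 had it as 3 separate peaks and both replicates 2 as 1 peak. Its split thus followed the replicate number, and with it the background mean, which was lower in both replicates 1, and not the culture.

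The 1456-bp region chr19:5786347-5787802 rose to 175 and 252 times the background in the G128 pair, and to 229 and 228 times in the G2 pair. Here G128 replicate 2 was the highest library, so the groups overlapped as measured. Once each library was centred on its median, both G2 libraries lay below both G128 libraries, as in 21.9% of all regions with a peak in all 4 libraries. This region had the most constant summit position of the members, within 4 bp, between 5786668 and 5786672. The 1159-bp region chr19:5817696-5818854 had 131 and 156 times on G128 and 207 and 193 times on G2, without overlap of the groups.

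Members of intermediate height lay between these. The neighbours chr19:5814712-5815618 and chr19:5815732-5816686 were 113 bp apart. The first had summits of 93.9, 106, 108 and 140 times the background, with both G2 libraries above both G128 libraries. The second had 108, 108, 116 and 90.6 times, so that G2 replicate 2 was the lowest library and G2 replicate 1 the highest. The 5329-bp region chr19:5838444-5843772 had 75.9, 103, 81.0 and 111.1 times, and in both cultures replicate 2 was the higher. It was split into 4, 1, 3 and 2 peaks in that order. The 2630-bp region chr19:5792958-5795587 had 56.9, 68.0, 63.7 and 73.1 times, again with replicate 2 the higher in both cultures. Its highest point lay at 5794996 and 5795006 in the replicates 1 of G128 and G2, and at 5794074 and 5794073 in the replicates 2. The region chr19:5814018-5814572 had 40.8, 61.6, 65.5 and 60.6 times, with G128 replicate 1 low.

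By mean summit, the order of the first 4 members was 266, 254, 230 and 221 times the background, and the fifth had 172 times, the sixth 112, the seventh 105, the eighth 92.7, the ninth 65.4 and the tenth 57.1. Among these 10, neighbours in the order overlapped in their range over the libraries, except that the eighth (75.9 to 111.1 times) lay above the ninth (56.9 to 73.1 times) in every library. Mean summits of the other 6 members listed in all 4 libraries lay between 28.2 and 52.5 times. Over the 16 members in all 4 libraries the median summit was 66.4, 85.4, 73.2 and 81.8 times, above the library medians of all such regions. In the rest of the window the 14 such regions had medians of 98.6, 132, 144 and 146 times.

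**Figure D3:**
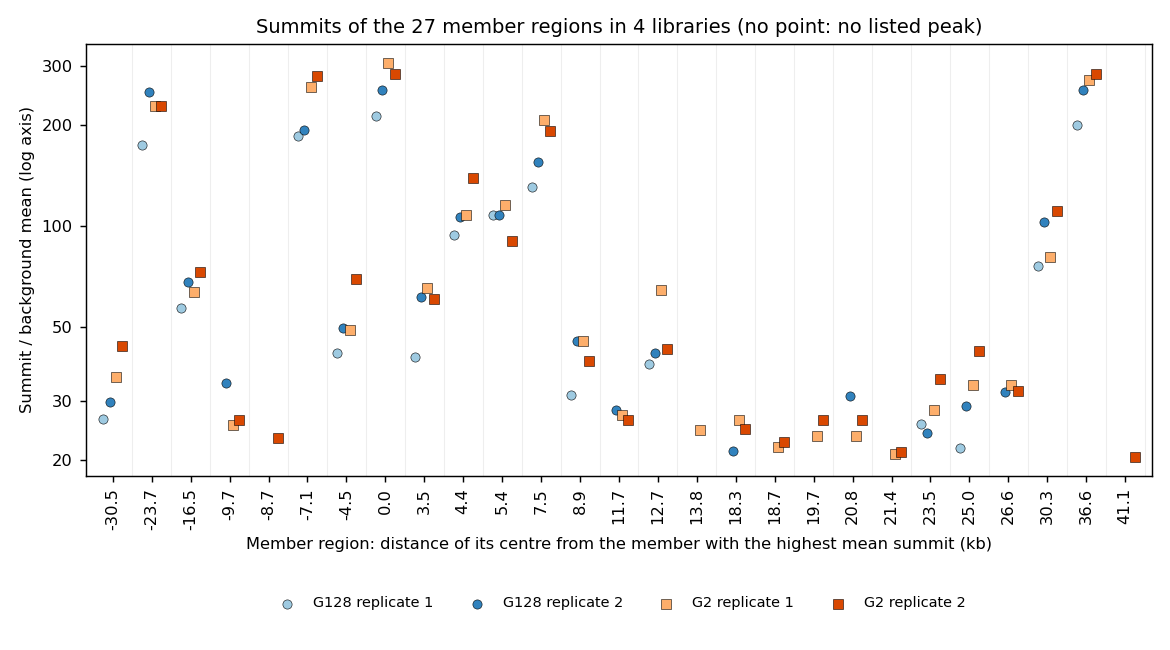
Summit divided by the background mean (log axis) of each of the 27 member regions, in chromosome order and labelled by distance in kb from the member with the highest mean summit. Circles are G128 and squares G2 libraries, and a missing point means no listed peak. The run of low members at 13.8 to 26.6 kb lies between 20.9 and 42.4 times the background. Members at 8.9 to 12.7 kb, directly to its left, are also low, from 26.3 to 64.6 times. Members above 100 times lie further out on the left, and the next member on the right has 75.9 to 111.1 times.

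Of the 27 members, 16 (59.3%) had a peak in all 4 libraries, where the share over all regions was 60.5%. Another 5 (18.5%) had a peak in every library but G128 replicate 1, against 9.48% of all regions, and 3 (11.1%) were listed on G2 by both libraries and not at all on G128, against 8.32%. A single library had a peak in 3 members (11.1%), against 15.5% of all regions. The opposite pattern, listed by both libraries on G128 and not at all on G2, held 0 members and 0.37% of all regions, and in the rest of the window 1 of 21 regions, chr19:5922225-5922474. With so few members none of these shares was tested against the others. G128 replicate 1 also had the shortest list of the series, and the part of list length in these patterns was not tested.

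The 11 members without a peak in some library were all weak, with summits of 20.5 to 34.0 times the background where they were listed. The 3 members of G2 only were chr19:5829276-5829691, with 21.8 and 22.6 times in G2 replicates 1 and 2, chr19:5830277-5830742, with 23.7 and 26.3 times, and chr19:5832084-5832331, with 20.9 and 21.2 times. All 3 stood close to the lowest summits of the lists. Of the 5 members without G128 replicate 1, chr19:5800982-5801255 had 34.0 times in G128 replicate 2 and 25.5 and 26.3 times on G2, and chr19:5831304-5831837 had 31.2 times against 23.7 and 26.3 times. In chr19:5822157-5822855 it was 28.3 against 27.3 and 26.3 times. In these 3 the G128 library was above both G2 libraries. In chr19:5828923-5829183, with 21.3 against 26.4 and 24.8 times, and in chr19:5836870-5837831, with 31.9 against 33.7 and 32.1 times, it was below both. The members in 1 library were chr19:5801981-5802170 and chr19:5851787-5852044 in G2 replicate 2, with 23.4 and 20.5 times, and chr19:5824497-5824704 in G2 replicate 1, with 24.6 times.

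Weak members followed each other without interruption from 5824497 to 5837831, a run of 9 members over 13335 bp singled out after the values were seen. No summit in it passed 42.4 times the background, and the limit used to cut the run was 45 times. Directly before the run, chr19:5823246-5823801 had 38.9 to 64.6 times and chr19:5822157-5822855 had 26.3 to 28.3 times where listed. G128 replicates 1 and 2 listed 2 and 6 peaks in the run, and G2 replicates 1 and 2 listed 10 and 8. The bases under these peaks were 373 and 2118 on G128 and 3497 and 5007 on G2. Both counts on G2 were above both on G128, and the G128 libraries also differed from each other, by 2 against 6 peaks. The run includes 3 members listed on G2 only and chr19:5824497-5824704, listed in G2 replicate 1 alone. Its counts are therefore not independent of how its members were formed. How often weak stretches elsewhere show this order was not counted. With the same number of peaks taken from each list, the 32540 strongest by signal, the run held 2, 4, 5 and 5 peaks. The difference between the cultures in this run was smaller with lists of equal length.

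Inside this run lay 2 members that were low for the width of the merged region. The 1089-bp region chr19:5833718-5834806 had summits of 25.6 and 24.1 times the background on G128 and of 28.2 and 35.1 times on G2. The 1129-bp region chr19:5835232-5836360 had 21.8 and 29.0 times on G128 and 33.7 and 42.4 times on G2. In both, the G2 libraries were above the G128 libraries as measured, as in 67.6% of all regions with a peak in all 4 libraries. In replicate order, the widest peak in the 1089-bp region was 133 and 223 bp on G128, and 575 and 1088 bp on G2. In the 1129-bp region it was 240 and 690 bp on G128, and 766 and 1124 bp on G2. Both merged widths thus rested mainly on G2 replicate 2. The G128 peaks of the 1089-bp region did not overlap each other. Highest points were spread over 494 and 354 bp, so the summits compared were not all from the same site. Once each library was centred on its median, the groups overlapped in the 1089-bp region. In the 1129-bp region G128 replicate 2 and G2 replicate 1 then met at -1 on the log2 scale. Of the 6187 regions of at least 1000 bp with a peak in all 4 libraries, only 36 (0.582%) had a mean summit below 35 times the background, and these 2 were among them. Both limits were chosen after the values were seen.

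Of the interval as a whole, G2 had more listed peaks and more covered bases. Listed peaks numbered 29.0 ± 1.41 in the G2 libraries and 23.5 ± 0.707 in those of G128 (SD, n = 2 each), 1.23 times as many, and the groups did not overlap. Bases under peaks came to 32160.5 ± 2883 in the G2 libraries and 26561 ± 4660 in those of G128 (SD, n = 2 each), 1.21 times as many, where G128 replicate 2 (29856) and G2 replicate 1 (30122) nearly met. Both values had p = 0.333 in an exact permutation test, taken two-sided, and no smaller p is possible with 6 assignments of 2 against 2 libraries. The lists themselves were longer on G2, and as a share of each list the peaks of the interval did not follow the culture, with 0.0674 ± 0.00901% on G128 and 0.0691 ± 0.00247% on G2 (SD, n = 2 each). With equal numbers of peaks per list the interval held 24, 21, 24 and 21 peaks in G128 replicates 1 and 2 and G2 replicates 1 and 2, a ratio of 1.00. The summed summits of the 16 members in all 4 libraries were 0.0674% and 0.0710% of the sum over all such regions on G128 and 0.0664% and 0.0671% on G2. Both G2 shares were below both G128 shares, by less than the 2 G128 libraries differed from each other.

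**Figure D4:**
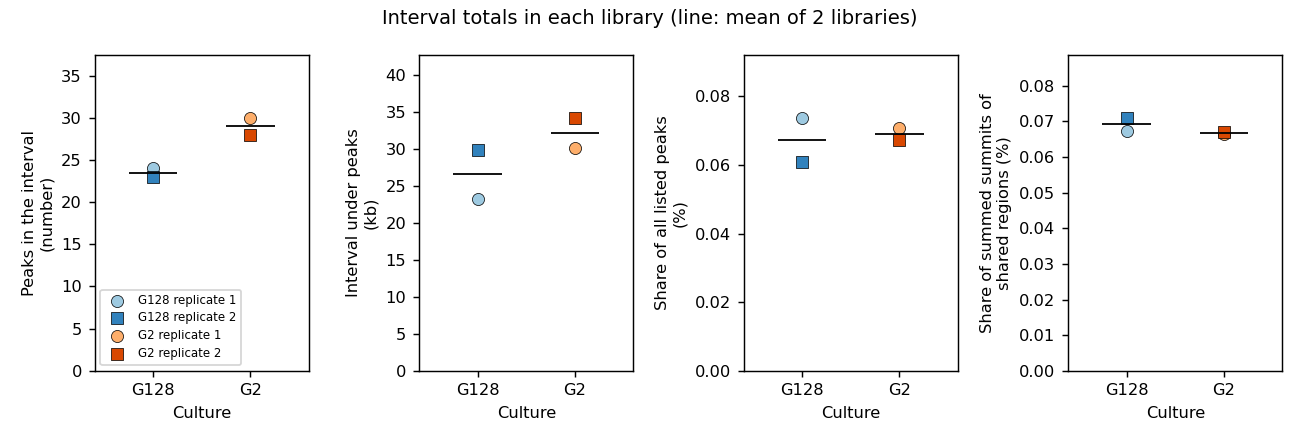
Totals of the interval in each library, from left to right the number of peaks, the kb under peaks, the share of all listed peaks in % and the share of the summed summits of shared regions in %. Points are libraries and lines the mean of 2 libraries per culture. Peaks (23 and 24 against 28 and 30) and kb are higher on G2, and the share of listed peaks overlaps between the cultures.

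Summits of single members were higher on G2 as measured, and this was also so across the genome. As measured, 15 of 16 members had a higher mean log2 summit on G2, and in 9 of them both G2 libraries were above both G128 libraries, which held for 67.6% of all regions with a peak in all 4 libraries. The reverse held for 0 members and 2.79% of all such regions. The median difference was 0.34 on the log2 scale over the members and 0.34 over all such regions. After each library was centred on its median, 8 members were higher and 8 lower on G2, with a median difference of 0.00 against 0.01 over all regions. In 2 members both G2 libraries then lay above both G128 libraries, and in 3 below, where 23.8% and 21.9% of all regions did so. The 2 above were chr19:5802335-5805038 and chr19:5817696-5818854. The 3 below were chr19:5786347-5787802, chr19:5792958-5795587 and chr19:5815732-5816686.

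None of the 16 members passed the test of centred log2 summits. With limma and Benjamini-Hochberg adjustment over all 27768 regions, 0 of 16 had an adjusted p under 0.05, where 1.47% of all regions did (0.601% higher and 0.864% lower on G2). At an unadjusted p under 0.05, 1 of 16 members passed, against 15% of all regions. It was chr19:5815732-5816686, with a difference of -0.41 ± 0.14 (SE) between G2 and G128 and an adjusted p of 0.144 by limma. For the 7025-bp region the difference was -0.02, with a 95% interval from -0.24 to 0.19, and for the 4004-bp region 0.01, from -0.20 to 0.22. For the 2704-bp region it was 0.18, from -0.04 to 0.40, and for the 1456-bp region -0.21, from -0.43 to 0.02. The 1159-bp region gave 0.15, from -0.08 to 0.39, and the 5329-bp region -0.23, from -0.53 to 0.08. Among the weak members, chr19:5835232-5836360 gave 0.25, from -0.17 to 0.68. These intervals come from limma on centred summits, so they bound only a difference relative to the library medians. As measured, the difference was 0.31 for the 7025-bp region and 0.34 for the 4004-bp region.

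Without the centring, 3 of 16 members were higher on G2 by limma, beside 26.6% of all regions. They were chr19:5802335-5805038, with 0.51 and an adjusted p of 0.0185, chr19:5817696-5818854, with 0.49 and 0.0284, and chr19:5835232-5836360, with 0.59 and 0.0316. These differences contain the general shift of 0.34 between the cultures.

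**Figure D5:**
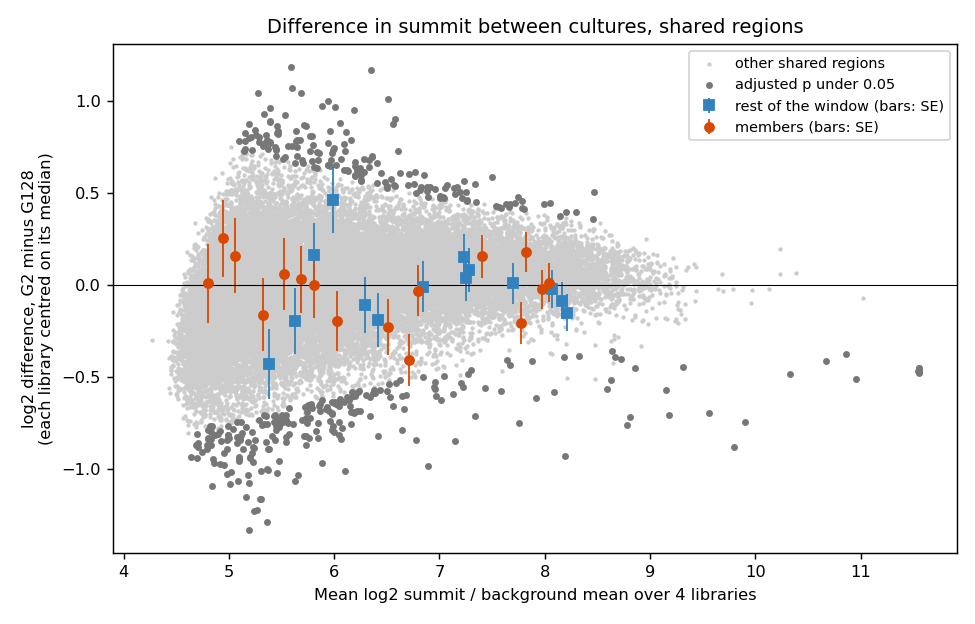
Difference in log2 summit between G2 and G128, each library centred on its median, against the mean log2 summit over the background. Orange circles are the 16 members and blue squares the 14 regions in the rest of the window, both with SE bars from limma, and dark grey points have an adjusted p under 0.05. Members lie from -0.41 to 0.25, among regions that did not pass the test.

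The position of the highest point varied among the members. It lay within 50 bp in all 4 libraries in 4 of 16 members, in 7 of 14 regions in the rest of the window and in 56.4% of all regions with a peak in all 4 libraries. The median range was 151 bp in the members, 48.5 bp in the rest of the window and 40 bp over all. The 4 members within 50 bp were chr19:5786347-5787802, chr19:5808794-5812797, chr19:5819397-5820013 and chr19:5780139-5780518, with 4, 19, 27 and 50 bp. Members with a peak in all 4 libraries were wider than all such regions, with a median of 1109 against 627 bp. Whether width accounts for the wider ranges was not tested. Among the members the ranges did not strictly follow the order of width. The widest ranges, 1299 and 933 bp, were in the members of 7025 and 2630 bp, the next, 494 and 354 bp, in the weak members of 1089 and 1129 bp, and the 5329-bp member had 186 bp. The distance of 50 bp was chosen after the data were seen, and no test was made.

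The highest regions in the rest of the window were chr19:5877473-5878934, with summits of 265, 292, 318 and 311 times the background, chr19:5944782-5946263, with 248, 279, 314 and 309 times, and chr19:5923935-5925944, with 217, 269, 299 and 300 times. Their mean summits were above that of the highest member, and they were 1462, 1482 and 2010 bp wide. By limma 0 of 14 regions there passed the test either, with 2 at an unadjusted p under 0.05. The regions most like the 4004-bp member over the 4 libraries, by the root mean square difference of centred log2 summits less their own mean, were chr19:5923935-5925944 with 0.046, chr19:5893783-5894568 with 0.064 and chr19:5871106-5871637 with 0.065, out of 14 compared. The likeness rests on 4 libraries and describes their pattern only.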

How the data were processed

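ATAC-seq peak lists of 4 libraries of NIH3T3 cells were used, 2 each from culture on G128 and on G2. Per the submitters' processing notes, the tools included Bowtie2 2.2.5, SAMtools 1.7 and Genrich 0.5, on mm9, with roles and settings not given in the sources used here. Each library had its own list. The lists deposited by the authors hold, for each peak a score, its signal, the −log10 of a p-value and of a q-value, and the summit offset. The deposited score was 1000 times the signal over the width, up to 1000, in 100% of peaks within a tolerance of 1. The signal and −log10 values are the authors' and rank peaks within their own list.

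Summit pileups were recovered from the steps of the −log10 p-values, fitted on the lowest 100 distinct values of each list to a log-normal background. All fell within 0.0018 of a whole number. Depth was read as the background mean of that fit. The recovery step was tried on p-values simulated from the same log-normal formula. Such data cannot show whether that formula holds for these lists or whether its mean equals sequencing depth. Sequencing read totals were not used here.

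Regions were peaks sharing at least 1 bp. Regions with a peak in all 4 libraries were tested with limma 3.58.1 in R 4.3.3 (trended variance, no block), on log2 summit over background, centred per library. Python 3.11.15, numpy 2.4.6, scipy 1.17.1 and pandas 2.3.3 did the rest. Named were the 10 members of highest mean summit, members with an adjusted p under 0.05, members missing from a library, and in the rest of the window the 3 highest and the 3 most alike; other members named were chosen after their values were seen. The interval, rules and alternatives were chosen with earlier results of these data known, and the motifs with the promoter in view. Genes were not placed on the regions, and the gene and marker lists were not looked up, since no mm9 annotation was used here. Deposited signal, interval borders, peak subsets, scaling, merging, low summits, the block by replicate number and the libraries used were varied.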

Additional observations from a re-analysis of the deposited data

How the results depend on the processing

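The ratio of G2 to G128 in listed peaks of the interval, 1.23, was 1.04 with peaks at or above the median p of their list, 1.00 with lists shortened to equal length, and 1.42 with peaks of at least 200 bp. The ratio of shares of summed summits, 0.965, was 0.922 with the deposited signal in place of the summit. The other alternatives moved these ratios, and all alternatives moved the ratio of covered bases, by less than the spread between replicates. The density of peaks in the interval was 2.15 times that of the rest of the window, 1.52 times with peaks at or above the median p, and 11.9 times that of all other 90-kb stretches on the chromosome.

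The number of members past the test, 0 of 16, was 3 without median scaling and 0 under each other alternative, including each library left out, where a lone library is assumed to vary like the pair. The members tested numbered 13 with the filter at 40 times the background, 14 with windows of 500 bp, 21 without G128 replicate 1 and 16 otherwise. With the replicate number as a block the number past the test was also 0. No label pairs the libraries, so the pairing is by number only. Differences between replicates, after median centring, correlated by 0.00 between the cultures across regions. Centring removes a difference shared by all regions, such as depth, so this value cannot show one. The background mean was lower in both replicates 1 (1.05 and 1.10) than in both replicates 2 (1.41 and 1.37). Under the block 230 regions of the series were higher and 382 lower on G2, against 167 and 240. There were 43 and 77 with quantile normalization, 85 and 159 with cyclic loess, 89 and 156 with windows of 500 bp around summits, 63 and 121 among regions averaging 40 times the background or more, and 0 and 0 with signal over width. Leaving out a library gave 15 to 432 and 46 to 299.

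None of the 10 members of highest mean summit passed the test of centred summits, and several near 0 changed sign. For chr19:5808794-5812797, 0.01 became -0.050 with quantile normalization, -0.054 with cyclic loess, -0.21 with signal over width, -0.015 with the filter on low summits, and -0.063 to 0.070 with a library left out. Signal over width also gave -0.13 for chr19:5802335-5805038 and -0.26 for chr19:5817696-5818854. With it 4 of 16 members were higher on G2, with a median difference of -0.14 against -0.034 over all regions. With the filter on low summits 4 of 13 members were higher. Of 16 members, 8 were higher with quantile normalization and 7 with cyclic loess. Without median scaling, which adds the general shift, chr19:5843849-5850873 gave 0.31, chr19:5786347-5787802 0.13, chr19:5814712-5815618 0.30, chr19:5838444-5843772 0.10, chr19:5792958-5795587 0.13 and chr19:5814018-5814572 0.33. Leaving out a library gave -0.086 to 0.038 for chr19:5843849-5850873, -0.21 to 0.13 for chr19:5814712-5815618, and -0.19 to 0.19 for chr19:5814018-5814572, which was 0.0017 with quantile normalization. Where not stated, the cause was not tested. The lists show only summits above about 18 times the background, which limits what can be said of the weak members.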
